A study of Rattus norvegicus with 38 samples.

Results

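Glycolysis turns glucose into pyruvate, and lactate dehydrogenase then interconverts pyruvate and lactate. In brain, glycolysis supplies neurons, glia and the vessel wall with ATP, and lactate made by some cells can be taken up and oxidised by others. The 5 genes described here sit at the entry, in the middle and at the end of that route. Hk1 encodes hexokinase 1, which phosphorylates glucose and is the main hexokinase of brain. Gapdh encodes glyceraldehyde-3-phosphate dehydrogenase, the NADH-producing step. Pkm encodes the muscle-type pyruvate kinase, which makes pyruvate. Ldha and Ldhb encode the A and B subunits of lactate dehydrogenase, whose tetramers are known to favour lactate formation when rich in A and lactate oxidation when rich in B.

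The genes were chosen by Ensembl ID as a set with a shared role, and make up 5 of the 32883 IDs in the deposited table. The IDs were ENSRNOG00000000593 (Hk1), ENSRNOG00000018630 (Gapdh), ENSRNOG00000011329 (Pkm), ENSRNOG00000013009 (Ldha) and ENSRNOG00000013000 (Ldhb), and all 5 were present. The table pairs no ID with a gene name, so the names come from the definition of the set. Other genes of the pathway, and markers of neurons, vessel cells, glia and blood, could not be looked up by name and are not described.

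The study took frontal brain from 10 SHRSP rats, the stroke-prone strain of spontaneously hypertensive rat, and from 9 Wistar rats as the reference strain. Animals were of a late hypertension stage, 32 to 34 weeks of age, or of an early stage, 24 to 25 weeks of age, and the Wistar rats carry the same stage labels. Late SHRSP, early SHRSP and early Wistar held 5 animals each and late Wistar held 4. No treatment or genetic change is named in the labels. From each animal, cortical blood vessels and clusters of cortical neurons were cut out by laser microdissection, and each capture gave 1 library of QuantSeq, a method that reads transcripts next to their 3′ end. That makes 38 libraries in 8 groups, and libraries of a group are separate animals. In captured tissue, fewer cells of a type and less RNA per cell cannot be told apart.

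Vessel libraries held 1612966 to 4963429 counts and neuron libraries 1198386 to 4101901. The neuron libraries fell into sets by the share of counts in the most abundant ID of the table (ENSRNOG00000043866). That share was 20.4 to 35.5% in 11 animals, called high-share below, and 4.34 to 10.7% in the other 8, called low-share. All 9 late animals were high-share, together with early SHRSP animal 383 and early Wistar animal 349, and all 8 low-share animals were early. Stage and library set therefore coincide for all but 2 animals. The vessel libraries of high-share animals detected 9875 to 11974 IDs and those of low-share animals 4104 to 8752.

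Values of single animals are listed in the order of their numbers within a group. Levels are given as CPM, counts scaled to a common library total with TMM factors over all 38 libraries. QuantSeq gives about 1 read per transcript whatever its length, so CPM values of different IDs can be set side by side as counted 3′ ends. As levels of the genes, those of Gapdh, Pkm and Ldha are uncertain, since copies described below may share their reads, which was not tested. The order of members and the Ldhb to Ldha ratios carry that limit. In neuron libraries the order of the IDs was Ldhb, Hk1, Ldha, Pkm, Gapdh. Ldhb averaged 473.6 ± 73.7 CPM (SD, n = 19) and ranked 196 of the 18704 IDs with a count. It held 0.0322 to 0.0666% of all counts of a neuron library. Hk1 averaged 111 ± 41.5 CPM and ranked 1409, and Ldha averaged 45.4 ± 14.7 CPM and ranked 3277. Pkm averaged 3.24 ± 2.10 CPM and Gapdh 0.900 ± 0.676 CPM, below the middle of the list. The ranges of Ldhb (371 to 685 CPM) and Hk1 (23.9 to 167 CPM) did not overlap in neurons, whereas those of Hk1 and Ldha (20.6 to 84.7 CPM) did.

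The vessel libraries had the same order. Ldhb averaged 447.9 ± 176 CPM, Hk1 105 ± 65.6 CPM, Ldha 34.0 ± 30.5 CPM, Pkm 1.75 ± 4.32 CPM and Gapdh 0.375 ± 0.896 CPM (SD, n = 19). The spread between vessel libraries was the wider one for every member. The ratio of SD to mean was 0.39 in vessels and 0.16 in neurons for Ldhb, 0.62 in vessels and 0.37 in neurons for Hk1, and 0.90 in vessels and 0.32 in neurons for Ldha.

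**Figure D1:**
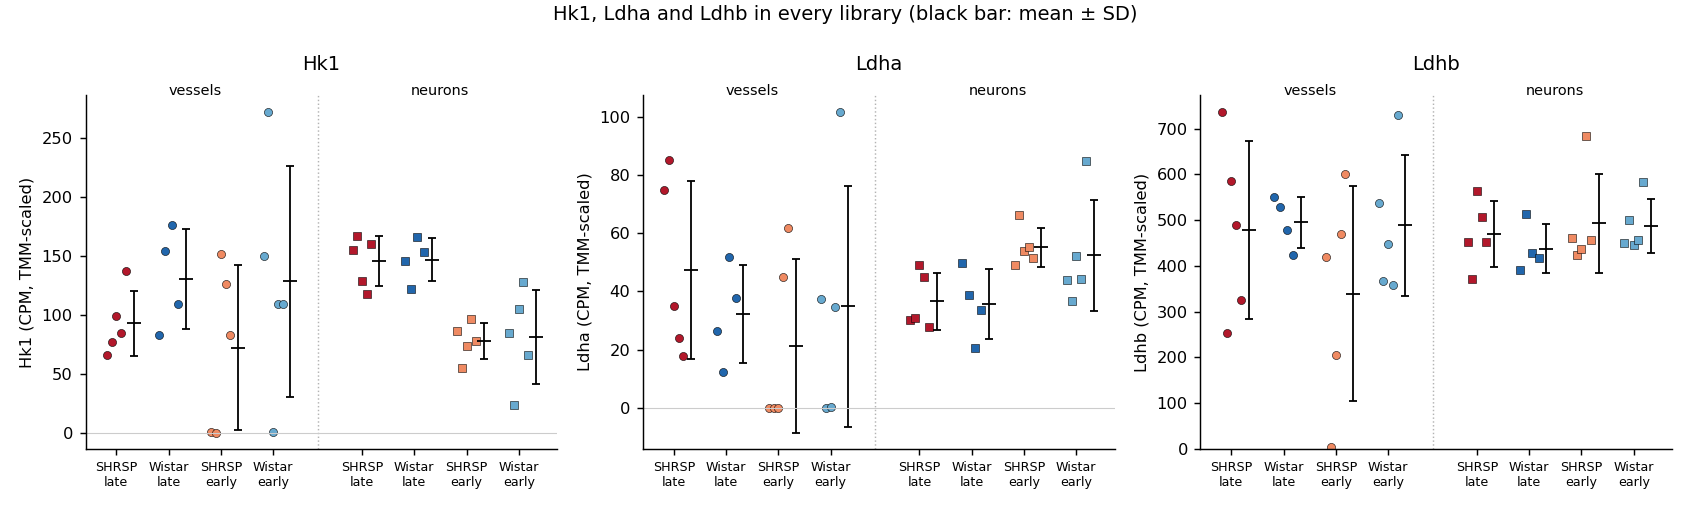
Levels of Hk1, Ldha and Ldhb in CPM (vertical axes, linear) in the 8 groups (horizontal axes), with 1 point per animal and bars for the mean and SD. Hk1 in neuron libraries averages 146 CPM late and 79.8 CPM early, Ldhb in neurons stays between 371 and 685 CPM, and several early vessel libraries lie at or near 0 for Hk1 or Ldha.

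The promoters of Ldha and Ldhb are shown because the genes encode partner subunits whose count ratio is described below, and because glycolytic genes are known for their induction by low oxygen. The sequences are from RefSeq, assembly GRCr8, from 250 bases before to 50 after the annotated start, 5′ to 3′ on the gene's strand. Ldha lies on the + strand at chr1:106507842-106508141 and Ldhb on the − strand at chr4:177177359-177177658. Capitals mark ACGTG on either strand, 1 form of the core of the element that hypoxia-inducible factor binds. The form GCGTG occurs in both promoters, but was not searched for and stays in lower case.
Ldha: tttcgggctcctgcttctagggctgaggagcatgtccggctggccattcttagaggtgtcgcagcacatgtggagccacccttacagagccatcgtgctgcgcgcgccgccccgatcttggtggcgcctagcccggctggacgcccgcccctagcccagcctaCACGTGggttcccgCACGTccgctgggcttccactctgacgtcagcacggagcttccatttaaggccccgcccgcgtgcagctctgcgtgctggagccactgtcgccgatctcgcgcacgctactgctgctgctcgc
Ldhb: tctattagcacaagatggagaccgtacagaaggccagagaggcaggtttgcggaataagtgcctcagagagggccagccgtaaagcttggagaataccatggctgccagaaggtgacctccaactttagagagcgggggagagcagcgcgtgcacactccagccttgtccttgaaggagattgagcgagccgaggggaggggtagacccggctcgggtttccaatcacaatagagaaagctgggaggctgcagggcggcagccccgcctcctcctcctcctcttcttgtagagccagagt
The Ldha promoter held 3 matches to ACGTG, of which 2 overlap on opposite strands within 1 palindrome, and the Ldhb promoter held 0. Among the other members, Gapdh had 1 match, Pkm 0, and the 2 promoters listed for Hk1 had 0 and 1. Of 33469 rat promoters of 300 bases, 19.3% held at least 1 match. A match describes these letters and is not evidence of binding.

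Hk1, the entry enzyme, was the member called between stages, with higher levels in late neurons of both strains. In late SHRSP neurons it stood at 155.1, 167.0, 128.7, 118.2 and 160.1 CPM, against 86.4, 55.5, 73.7, 96.6 and 78.2 CPM in early SHRSP neurons. Every late SHRSP animal lay above every early one. In late Wistar neurons it stood at 145.9, 122.5, 166.4 and 153.6 CPM, against 84.8, 23.9, 105.0, 128.1 and 66.1 CPM in early Wistar neurons. These groups overlapped through early animal 349, at 128.1 CPM.

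The means were 145.8 ± 21.2 CPM in late SHRSP and 78.1 ± 15.3 CPM in early SHRSP neurons (SD, n = 5 each). They were 147.1 ± 18.5 CPM in late Wistar (n = 4) and 81.5 ± 39.7 CPM in early Wistar neurons (n = 5). Late neurons thus had 1.97-fold more Hk1 in SHRSP (log2 fold change 0.98, SE 0.27, adjusted p = 0.0267) and 1.91-fold more in Wistar (0.93, SE 0.28, adjusted p = 0.0386), by edgeR's quasi-likelihood test with Benjamini-Hochberg adjustment over 10833 IDs. Hk1 was the 1 member called of 4 tested in each strain. Of all IDs, 8.85% were called in SHRSP (6.12% higher late) and 9.31% in Wistar (5.84% higher late), and the median log2 fold change of all IDs was −0.08 in SHRSP and −0.03 in Wistar. The increase did not differ detectably between the strains (difference of log2 folds 0.04, SE 0.39, interval of 2 SE from −0.73 to 0.82).

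The rise of Hk1 moved with the library set. The 9 late animals, all high-share, averaged 146 ± 18.8 CPM, the 2 early high-share animals stood at 96.6 and 128.1 CPM, and the 8 early low-share animals averaged 71.7 ± 24.3 CPM. Among high-share animals alone, where each strain has 1 early animal, the log2 fold change of Hk1 was 0.66 in SHRSP (adjusted p = 0.686) and 0.24 in Wistar (adjusted p = 0.990). When the library set was added to the fit, the Hk1 value was 0.47 in SHRSP (adjusted p = 0.976) and 0.46 in Wistar (adjusted p = 0.954). The part of the library set in the Hk1 difference cannot be told apart from that of stage, beyond these 2 early animals. The call also rested on single animals: in SHRSP the adjusted p of Hk1 was 0.0514 to 0.0886 without any 1 of animals 374, 377, 378, 379, 380, 384 or 386, and in Wistar 0.0645 to 0.128 without any 1 of 340, 350, 353, 354 or 368.

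**Figure D2:**
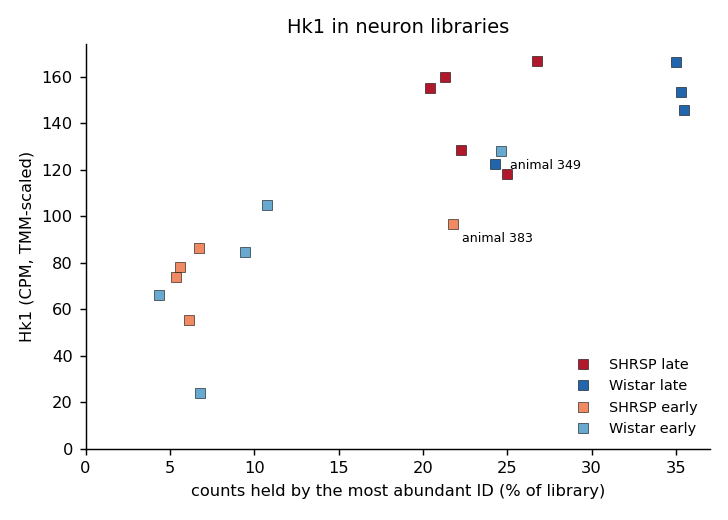
Hk1 level in the 19 neuron libraries (vertical axis, CPM, linear) against the percentage of counts in the most abundant ID (horizontal axis), coloured by strain and stage. The late animals and the early animals 349 and 383 lie at 20.4% or more, the other 8 early animals at 10.7% or less, and no animal lies between.

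Measured within a library, Hk1 also stood higher relative to Ldhb in late neurons. The log2 ratio of Hk1 to Ldhb counts was −1.64 ± 0.36 in late neurons (SD, n = 9, range −2.13 to −1.15) and −2.71 ± 0.70 in early neurons (n = 10, range −4.38 to −1.84). This ratio does not depend on the scaling of the libraries, and it is given as a description without a test. It also moved with the library set, at −1.76 ± 0.48 in high-share neurons (n = 11) and −2.81 ± 0.71 in low-share ones (n = 8). Early high-share animals 383 and 349 stood at −2.82 and −1.84.

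In vessels no stage difference of Hk1 was detectable. In SHRSP vessels it averaged 93.0 ± 27.5 CPM late and 72.7 ± 70.0 CPM early. In Wistar vessels it averaged 130.9 ± 42.2 CPM late and 128.6 ± 97.6 CPM early. The log2 fold changes were 0.36 (SE 0.99, interval −1.63 to 2.34) in SHRSP and 0.02 (SE 1.05, interval −2.08 to 2.12) in Wistar. These intervals include the rise seen in neurons. In the 38-library fit with animal as a block, the stage difference of Hk1 in vessels minus that in neurons was 0.15 (SE 0.98, adjusted p = 0.945), so the materials were not shown to differ.

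The next members in the route, Gapdh and Pkm, had few counts although both enzymes are abundant in most cells. The Gapdh ID collected 77 reads over the 38 libraries, with 0 to 12 per library. It had no count in 15 of 19 vessel libraries and in 2 of 19 neuron libraries, and neuron libraries had a median of 3 counts. Gapdh did not pass the filter on low counts in any fit and was not tested. The Pkm ID collected 304 reads, with 0 to 69 per library, and no count in 13 vessel libraries and 1 neuron library. It passed the filter in the neuron and 38-library fits.

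These levels go against the gene names, as transcripts of both enzymes are usually among the more abundant ones of brain. RefSeq's GRCr8 gene table lists 81 symbols of the form of a Gapdh pseudogene and 19 of Pkm, against 30 of Ldha, 1 of Ldhb and 0 of Hk1. Reads shared with near-identical copies may be left uncounted or split by the counting, so Gapdh, Pkm and Ldha values are uncertain as measures of the genes. How alike the sequences of these copies are was not measured, and their part in the low counts was not tested.

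**Figure D3:**
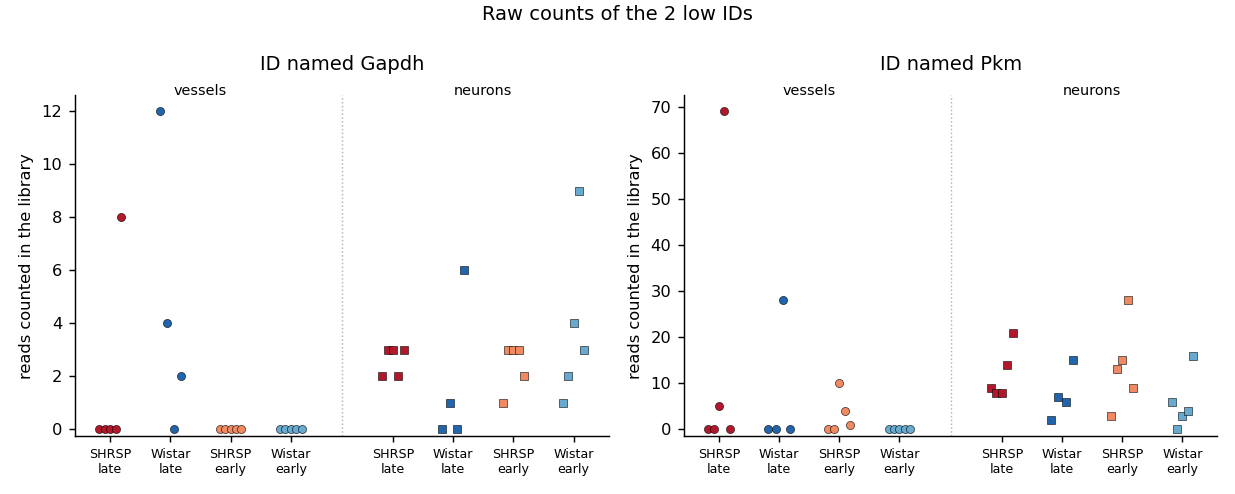
Raw counts per library (vertical axes, linear) of the Gapdh and Pkm IDs in the 8 groups (horizontal axes), with 1 point per animal. Gapdh does not exceed 12 counts and Pkm does not exceed 69, and 15 of 19 vessel libraries are at 0 for Gapdh and 13 of 19 for Pkm.

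Pkm had the largest strain difference of the members in neurons, without passing the test. It had 9, 8, 8, 14 and 21 counts in late SHRSP neurons, against 2, 7, 6 and 15 counts in late Wistar neurons. In early SHRSP neurons it had 3, 13, 15, 28 and 9 counts, against 6, 0, 3, 4 and 16 counts in early Wistar neurons. The groups overlapped at both stages. The mean of the stage-wise log2 differences of Pkm was 0.99 (SE 0.48, adjusted p = 0.642 in edgeR), with SHRSP neurons at 4.3 ± 2.1 CPM (n = 10) and Wistar neurons at 2.1 ± 1.5 CPM (n = 9). Its stage differences in neurons were 0.00 in SHRSP (adjusted p = 1) and 0.63 in Wistar (SE 0.71, adjusted p = 0.608).

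Ldha, the subunit tied to lactate formation, had lower mean levels in late neurons without passing the test. In late SHRSP neurons it stood at 30.1, 30.9, 49.0, 44.9 and 27.8 CPM, against 48.9, 66.2, 53.7, 55.2 and 51.6 CPM in early SHRSP neurons. The groups overlapped at their edges, with the highest late animal at 49.0 CPM and the lowest early one at 48.9 CPM. In late Wistar neurons it stood at 49.7, 38.6, 20.6 and 33.7 CPM, against 43.8, 36.7, 52.1, 44.3 and 84.7 CPM in early Wistar neurons, which overlapped more. The log2 fold changes of Ldha were −0.53 in SHRSP (SE 0.24, adjusted p = 0.161) and −0.48 in Wistar (SE 0.25, adjusted p = 0.221). By library set, Ldha averaged 36.2 ± 10.1 CPM in the late neurons, 49.8 ± 7.72 CPM in the 2 early high-share and 54.7 ± 14.8 CPM in the 8 early low-share ones.

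Ldhb, the subunit tied to lactate use, was the steadiest member in neurons. It stood at 452.2, 371.5, 564.6, 506.4 and 453.2 CPM in late SHRSP neurons, against 461.3, 424.2, 436.3, 685.1 and 456.9 CPM in early SHRSP neurons. In Wistar it stood at 390.0, 514.0, 428.6 and 418.1 CPM in late neurons, against 450.4, 499.5, 445.4, 457.4 and 584.0 CPM in early neurons. All 4 groups overlapped. The stage difference on the log2 scale was −0.00 in SHRSP (SE 0.15, interval −0.29 to 0.29). In Wistar it was −0.09 (SE 0.15, interval −0.40 to 0.21), and neither interval reaches the value estimated for Hk1. Over the alternative fits described below, the difference ran from −0.48 to 0.16 in SHRSP and from −0.32 to −0.03 in Wistar. By library set, Ldhb averaged 455 ± 62.7 CPM in the late neurons, 571 ± 161 CPM in the 2 early high-share and 470 ± 51.2 CPM in the 8 early low-share ones.

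Within each neuron library Ldhb counts exceeded Ldha counts by 6.40 to 20.8 times, with a median of 11.3. Late neurons had 13.4 ± 3.66 Ldhb counts per Ldha count (SD, n = 9) and early neurons 9.49 ± 2.26 (n = 10). In SHRSP the ratio was 13.2 ± 2.29 late and 9.04 ± 2.20 early, and in Wistar 13.6 ± 5.35 late and 9.93 ± 2.49 early. The ranges of late and early animals overlapped in both strains. High-share neuron libraries had 13 ± 3.4 and low-share ones 9.0 ± 2.2. The ratio is a description of 2 members and was not given a test.

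As a percentage of Ldha plus Ldhb counts, Ldha made up 4.60 to 13.5% in neurons. In vessels it made up 0 to 25.1%. The highest vessel value was that of late SHRSP animal 379, with 25.1% (95% exact binomial interval 22.4 to 28.0%). At the low end, early SHRSP vessels of animal 374 had 0 Ldha counts beside 912 of Ldhb, and vessels of early Wistar animal 343 had 0 beside 1450. Taking 3 counts of the total as the limit that a count of 0 allows, these shares could be up to 0.329% in animal 374 and 0.207% in animal 343; the exact binomial upper bounds were 0.404% and 0.254%. In animal 377 the vessels had 6 Ldhb counts, too few for a share. Intervals and limits cover counting error only, since PCR copies are not separate molecules.

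**Figure D4:**
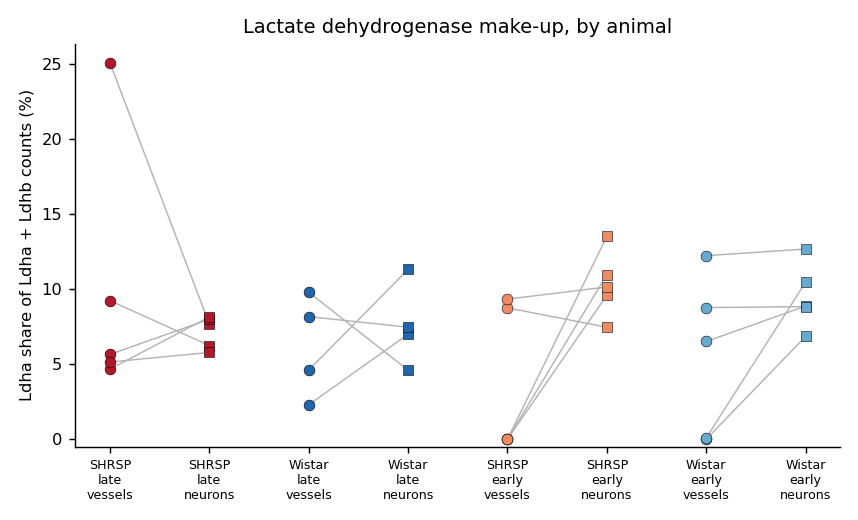
Percentage of Ldha among Ldha plus Ldhb counts (vertical axis, linear) in vessels and neurons, with 1 line joining both libraries of an animal in each strain and stage group. Neuron libraries lie between 4.60 and 13.5%, whereas vessel libraries run from 0 to 25.1%, with the values at or near 0 in early animals.

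Between the strains, no member was called in either material. In SHRSP minus Wistar vessels, averaged over the stages, the log2 differences were −0.66 for Hk1 (SE 0.72, interval −2.10 to 0.79), −0.07 for Ldha (SE 1.14, interval −2.35 to 2.21) and −0.29 for Ldhb (SE 0.35, interval −0.996 to 0.423). In neurons they were −0.06 for Hk1 (SE 0.19, interval −0.45 to 0.33), 0.03 for Ldha (SE 0.17, interval −0.31 to 0.38) and 0.03 for Ldhb (SE 0.11, interval −0.18 to 0.25). The neuron intervals thus exclude strain differences of 1 log2 unit for these members, and the vessel intervals of Hk1 and Ldha do not. Over all IDs, 0.0817% were called in vessels and 0.674% in neurons.

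Taken stage by stage, 0 members were called between strains by edgeR, by DESeq2 or by limma voom, and 0 had an unadjusted edgeR p under 0.05. The called share of all IDs was 0% late and 0.254% early in vessels, and 0.0369% late and 0.222% early in neurons. The late vessel comparison called 0 of 11011 IDs in edgeR (102 at an unadjusted p under 0.05), 11 in DESeq2 and 1 in limma voom. When the strain difference was compared between stages, 0 members were called, beside 0.00908% of IDs in vessels and 0% in neurons. In vessels 788 IDs had an unadjusted edgeR p under 0.05, and 128 were called in DESeq2 and 0 in limma voom. In neurons 254 IDs had such a p, and 0 were called in DESeq2 or limma voom. No tool called a member in this comparison. Neither was a member called in the late minus early comparison of vessels, where 0.00908% of IDs were called in each strain by edgeR. That is 1 ID, against 358 in DESeq2 and 1252 in limma voom for SHRSP, and 34 and 0 for Wistar, and neither tool called a member.

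The vessel libraries showed Hk1 and Ldha as present at neuron-like counts or almost missing. Ldha had 0 counts in early SHRSP animals 374, 377 and 380 and in early Wistar animal 343, and 1 count in early Wistar animal 346. The other 14 vessel libraries held 48 to 436 Ldha counts. Hk1 had 2 counts in animal 374, 1 in 377 and 3 in 346, and 219 to 1075 counts in the others. Ldhb had 6 counts in animal 377 and 610 to 4287 in the others.

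The low libraries were not the same for every member. Animal 343 had the highest vessel count of Hk1, 1075, with 0 of Ldha, and animal 380 had 450 of Hk1 with 0 of Ldha. All 5 libraries with at most 1 Ldha count came from early, low-share animals and detected 4104 to 6453 IDs, against 6543 to 11974 in the other 14. Among the 1143 IDs with a neuron level within 0.32 of that of Ldha on the log2 scale, 27.3 to 81.6% had at most 3 counts in those 5 libraries and 0 to 42.1% in the others. For the 680 IDs near the level of Hk1 the shares were 20.4 to 65.6% in its 3 low libraries and 0 to 30.6% in the others. The low counts of Ldha and Hk1 stood beside other IDs of like level that were also almost missing, but the shares of low and other libraries overlapped. For Hk1 the share was 20.4% in animal 346, with 3 counts, and 30.6% in animal 380, with 450. For Ldha it was 27.3% in animal 343, with 0 counts, and 42.1% in animal 386, with 188. What part the number of detected IDs had in the low counts was not tested.

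**Figure D5:**
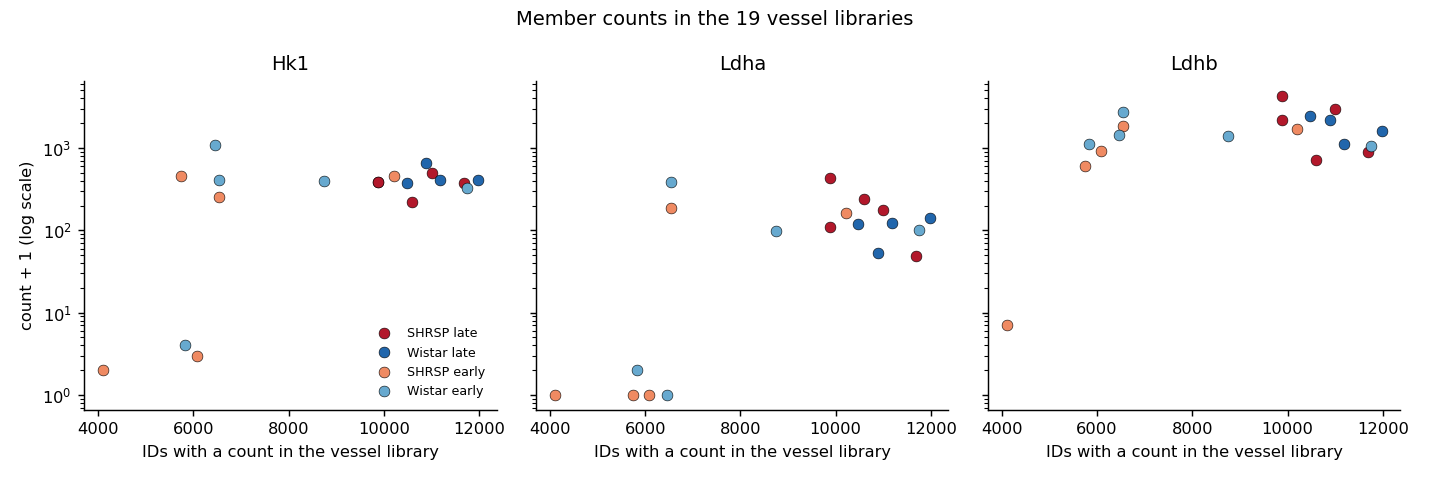
Counts plus 1 of Hk1, Ldha and Ldhb in the 19 vessel libraries (vertical axis, logarithmic) against the number of IDs detected in the library (horizontal axis). The 5 libraries with at most 1 Ldha count detected 4104 to 6453 IDs, and every library above that range holds 48 or more Ldha counts.

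Between materials, in the 38-library fit with animal as a block, Pkm and Ldha were lower in vessels than in neurons. The log2 fold change averaged over the 4 strain and stage groups was −3.90 for Pkm (SE 1.09, adjusted p = 0.00209) and −1.90 for Ldha (SE 0.80, adjusted p = 0.0366). That is 2 of the 4 members tested, beside 50.5% of the 12117 IDs called, of which 47.5% were lower in vessels. The median of all IDs was −1.63, so Ldha lay near that of the table. Hk1 (−0.53, SE 0.49, adjusted p = 0.360) and Ldhb (−0.25, SE 0.23, adjusted p = 0.356) were not called and lay above the median. Counted over the 19 animals, vessels held the higher CPM in 8 for Hk1, 6 for Ldha, 10 for Ldhb, 2 for Pkm and 3 for Gapdh.

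The Ldha difference moved with the early, low-share animals. Among high-share animals alone it was −0.17 (adjusted p = 0.874), and for Pkm −3.74 (adjusted p = 0.154); each early group then holds 1 animal. Without the animal block the Ldha value was −0.43 (adjusted p = 0.615) and the Pkm value −1.94 (adjusted p = 0.0479). The size of the Pkm difference thus depended on the block, at mean levels of 1.75 CPM in vessels and 3.24 CPM in neurons. That difference also includes early Wistar, with all 5 vessel libraries at 0, so its size depends in part on the prior count of the fit. Leaving out any 1 of animals 343, 346, 350, 351, 374, 377, 380, 381, 382 or 384 also ended the Ldha call, with adjusted p of 0.0542 to 0.119. In early SHRSP alone Ldha stood at 0, 0, 0, 44.9 and 61.8 CPM in vessels, against 48.9, 66.2, 53.7, 55.2 and 51.6 CPM in neurons of the same animals. The log2 fold change of Ldha in that group was −5.31 (SE 2.06, adjusted p = 0.0320), beside 39.1% of IDs called (38.0% lower in vessels) and a median of −3.71 over all IDs. It was −3.56, −3.53 and −3.37, with adjusted p of 0.154, 0.164 and 0.177, without animal 374, 377 or 380.

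In the other groups no member differed between vessels and neurons beyond the test. The Ldha log2 fold changes were 0.13 in late SHRSP (SE 1.21, 0.883% of IDs called), −2.15 in early Wistar (SE 1.56, 0.677% called) and −0.28 in late Wistar (SE 1.36, 0.371% called). Pkm in early Wistar, with all 5 vessel libraries at 0, had a fitted value of −5.12 (SE 2.08, adjusted p = 0.137), which depends on the prior count. The early Wistar background was 82 IDs in edgeR, 2945 in DESeq2 and 1718 in limma voom, and no tool called a member there or in the late groups. For Ldhb they were −0.07 in late SHRSP, −1.07 in early SHRSP (SE 0.49, adjusted p = 0.0676), 0.18 in late Wistar and −0.04 in early Wistar. The stage difference of Ldha in vessels minus that in neurons was 3.66 (SE 1.59, adjusted p = 0.149 in edgeR). The median of all IDs was 1.98, and edgeR called 0.0413% of them, which is 5 IDs. In DESeq2 the adjusted p of Ldha was 0.00707, beside 3254 IDs called by that tool. This Ldha stage difference was 0.20 (SE 0.74) in high-share animals, where each strain has 1 early animal. For the strain difference in vessels minus that in neurons 0 members were called by edgeR, DESeq2 or limma voom, and 0 had an unadjusted p under 0.05, beside 0% of all IDs (686 at an unadjusted p under 0.05, 324 called in DESeq2 and 1 in limma voom).

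The IDs with the profile most like each member were found by the Pearson correlation of log2 CPM over the 38 libraries, among the IDs whose mean log2 CPM reached 5, about 3091 in each case. For Hk1 this was ENSRNOG00000006030 (r = 0.948), for Ldha ENSRNOG00000026577 (r = 0.944) and for Ldhb ENSRNOG00000018039 (r = 0.950). For these 3 the values were higher within vessels, whose libraries share the gaps in detection described above, than within neurons. For Ldhb r was 0.960 in vessels and 0.496 in neurons, for Ldha 0.947 and 0.606, and for Hk1 0.966 and 0.715. For Pkm the closest ID was ENSRNOG00000016653 (r = 0.618, with 0.303 in vessels and 0.658 in neurons). For Gapdh it was ENSRNOG00000011841 (r = 0.531, with 0.413 in vessels and −0.057 in neurons). The Gapdh ID had no count in 17 of the 38 libraries and the Pkm ID in 14, so these 2 likenesses are uncertain. Each r is the highest among all IDs compared and was not given a test.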

How the data were processed

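Total RNA from laser-microdissected tissue was isolated with the PicoPure kit and sequenced as QuantSeq 3′ forward libraries, per the labels' protocols. The deposited table of the authors gives raw counts by Ensembl ID for 38 libraries, without normalization. Among tools, STAR 2.5.3a, HTSeq 0.6.1, DESeq2 1.18.1 and FastQC 0.11.5 are listed in the submitters' processing notes. The sources used here do not state the build, annotation or strand setting. All columns had a sample and no row lacked a gene ID.

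Counts were tested with edgeR 4.0.16 (R 4.3.3) by quasi-likelihood F tests, with TMM scaling, filterByExpr and Benjamini-Hochberg adjustment over all IDs tested (11011 in vessels, 10833 in neurons, 12117 in the 38-library fit), and called at an adjusted p under 0.05. The within-material fits hold 19 libraries in 4 groups. Comparisons of materials used all 38 libraries with the animal as a block, since both captures carry the same animal number in the titles. The deviations of a pair from their group means correlated at −0.233 to 0.406 (median 0.0487). A standard error is the log2 fold change divided by the square root of F, and intervals span 2 of them to each side. In the within-material fits the p-values measure the spread between these animals. In the 38-library fits with the block they measure how the difference of vessels and neurons varies between animals. Within groups, all 72 pairs of libraries differed beyond sampling noise (lowest chi-square per degree of freedom 4.88).

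The members and lists were chosen with earlier results of these data known. The members are named throughout, with the 1 most alike ID each, among IDs tested in the 38-library fit whose mean log2 CPM reached 5. A list of further glycolysis genes and cell type markers could not be applied: the files give no names, and 0 of the IDs matched the RefSeq GRCr8 table, so the labelled tissues were not checked against markers. All 5 symbols matched a RefSeq promoter. Ratios of counts had 0.5 added to each count on the log2 scale. The alternatives were other scalings, no filter, DESeq2 1.42.0, limma voom (limma 3.58.1), library sets, the fit without the block and leaving out each animal. The scripts were tested on simulated data.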

Additional observations from a re-analysis of the deposited data

Results flagged for a closer look

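Of 45 combinations of a group with a member's level or with the ratio of Ldhb to Ldha (those with every library at 0 left out), 4 held an animal that stood far from the rest of its group, where chance gives about 1 in 20 for measured values. That rate does not apply to the Gapdh value or to either Pkm value below. For the Gapdh value and the second Pkm value every other library is at 0, so any count is picked out. In the group of the first Pkm value 3 of 5 libraries are at 0. Early SHRSP animal 383 had 685 CPM of Ldhb in neurons, with the other 4 animals at 424 to 461 CPM. It is also the 1 high-share animal of that group. Late SHRSP animal 384 had 2.94 CPM of Gapdh in vessels (8 counts), with the other 4 at 0. Late SHRSP animal 382 had 15.3 CPM of Pkm in vessels (69 counts), with the others at 0 to 0.997 CPM. Late Wistar animal 353 had 12.1 CPM of Pkm in vessels (28 counts), with the other 3 at 0.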

How the results depend on the processing

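Over 70 results, 1840 of 1885 alternative values stayed on the same side of the threshold, of which 154, called in neither fit, changed sign, 40 were no longer called, 5 became called and 0 called values changed sign. The exceptions were these, and the cause was not tested. For Hk1 in late minus early neurons, the SHRSP log2 fold change was 0.66 in high-share animals and 0.47 with the set as a term, and 0.88 to 1.08 leaving out 1 animal. In Wistar it was 0.92 without the filter, 0.24 in high-share animals, 0.46 with the set as a term and 0.94 with only the groups compared, and 0.70 to 1.16 leaving out 1 animal. For Pkm in vessels minus neurons it was −3.74 in high-share animals and, still called, −1.94 without the replicate block. In late animals the uncalled Pkm value without the replicate block was −0.36 in SHRSP and 0.21 in Wistar. For Ldha in vessels minus neurons it was −1.69 with DESeq2-type size factors, −1.90 without the filter, −0.17 in high-share animals and −2.34 to −1.40 leaving out 1 animal. In early SHRSP the Ldha value was −4.87 with those size factors, −0.22 in the 1 high-share animal (383, so 1 library of each material) and −7.80 in low-share animals, and −7.14 to −3.37 leaving out 1 animal. The Ldhb value there was −1.47 to −0.34, and was called without animal 374 or 386. Leaving out 1 animal, that early SHRSP comparison called 2364 to 5411 IDs. The stage difference of Ldha in vessels minus that in neurons became called in 3 of 27 alternatives. Among them were DESeq2 (3.60), beside 3254 IDs called, and the fit without 383. Leaving out 1 animal, the Ldha value ranged from 2.68 to 4.56, and 0 to 1358 IDs were called. Uncalled, the Ldha value was 0.20 in high-share animals and 1.08 without the replicate block.

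Without the replicate block, Ldha in vessels minus neurons was −0.43 over all groups and −1.36 in early SHRSP, and limma voom without the block, chosen after seeing the data, gave the Ldha stage difference as 3.88. Dropping the block changed no other call of a member in edgeR. DESeq2-type size factors shifted the median of all IDs by 0.19 in vessels minus neurons and by 0.41 in early SHRSP.

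Counts of all IDs called moved more than those of the members. Late minus early neurons called 0 to 2033 IDs in SHRSP (180 to 1951 leaving out 1 animal) and 0 to 1556 in Wistar (197 to 1847), and vessels minus neurons called 1886 to 7684. Stage could not be compared among low-share animals alone, and the set term was not used in the 38-library fit. Gapdh and Pkm are limited by counts of 0 to 12 and 0 to 69.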
